A study of Mus musculus with 8 samples.

Results

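Small RNAs of 15 to 31 nt that were recovered with Argonaute, carried no miRNA name and were labelled as mRNA in the deposited table were described here. The label was taken from the class field of the table, and the reads with a class of mRNA and no miRNA match made up 4908 of 47204 distinct sequences. They named 2757 transcripts under 2632 source names. They amounted to 125357 of 38191202 reads over the 8 libraries.

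The libraries came from the cortex and hippocampus of 8 female mice, 250 mg of tissue per sample by the labels, and all 8 mice carried the 5XFADtg transgene on a mixed C57BL/6J/SJL background. The comparison was of 4 Rubicon het (+/-) mice with 4 Rubicon ko (-/-) mice, 1 library each, at an age of 6 months by the description of the comparison and of 6 or 8 months by the methods. There was no group without the transgene among the samples used here. 5XFADtg is a model of amyloid deposition whose transgenes are driven by the Thy1 promoter, which is active in neurons, and Rubicon (gene symbol Rubcn) is a negative regulator of autophagy and endocytic trafficking. The RISC was pulled down with a GW182 peptide that binds Argonaute, and its small RNAs were sequenced.

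Argonaute proteins hold a short guide RNA whose bases 2 to 7, the 6mer seed, pair with target mRNAs. Most guides in brain are miRNAs, and fragments of tRNA, rRNA and mRNA are found in the complex as minor passengers. In the mechanism called DISE (death induced by survival gene elimination), a guide with a toxic seed silences genes that cells need to survive. The table gives each seed a viability, the mean percentage of living cells in 3 mouse cell lines after transfection with an siRNA that carried this seed, so that a low value marks a toxic seed.

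The mRNA label did not hold for most of these reads when they were compared with the mouse transcripts of GENCODE M21. An exact sense match to the transcript named in the table was found for 335 sequences, 6.83% of the members, and these held 5.60% of the members' CPM (reads scaled to the total of their library). An exact sense match to any transcript was found for 508 sequences and to a protein-coding transcript for 267. The longest run of bases shared with the named transcript was 13 to 16 nt in 3858 sequences, with a median of 14 nt against a median read length of 20 nt. The table took its transcripts from an older annotation (mm9), and 100 members named a transcript that M21 does not hold. The names therefore rested mostly on partial alignments, and they are given below as labels (Trpm3-labelled reads) and not as source genes. One 16-base start was often spread over several labels: 129 such starts carried 2 or more names and together held 563 sequences and 26.7% of the CPM, with up to 7 names on one start.

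The members were divided by what they matched, with hairpins taken first. Hairpin-like reads, 795 sequences of at least 18 nt, lay within 1 edit of a RefSeq miRNA hairpin. Transcript-matched reads, 495 sequences, had an exact sense match to a transcript. The remaining 3618 sequences had neither and are called unmatched. An exact match on the antisense strand only was found for 67 of all members and was not used in this division. Introns, intergenic sequence, nuclear tRNA genes and genomes other than mouse were not searched here. Allowing 2 edits placed 1199 members on a hairpin, and these held 27.0% of the CPM. For comparison, 53 members lay within 1 edit of the reverse complement of a hairpin. A hairpin partly pairs with itself, so this count is not a rate of matches by chance.

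Examples of the hairpin-like reads are printed beside the mature miRNA they resemble. The mean CPM was 67.2 for the Castor2-labelled read, 63.9 for Elp3, 4.43 for F8, 0.881 for Ppan and 11.8 for Mir22hg. In each mature sequence (RefSeq, GRCm38.p6) the capitals mark the seed region, bases 2 to 8. In each deposited read the capital marks the single base that differs, written as the reference base, its position from the 5′ end of the read and the base of the read.
miR-3099-3p, chr7:6803638-6803659, plus strand: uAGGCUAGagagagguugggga
Castor2-labelled read, A7G: taggctGgagagaggttgggga
let-7b-5p, chr15:85707325-85707346, plus strand: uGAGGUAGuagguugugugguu
Elp3-labelled read, A10G: tgaggtagtGggttgtgtggtt
miR-376b-3p, chr12:109723508-109723528, plus strand: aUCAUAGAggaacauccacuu
F8-labelled read, A6G: atcatGgaggaacatccac
miR-379-5p, chr12:109709065-109709085, plus strand: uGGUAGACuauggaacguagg
Ppan-labelled read, A5G: tggtGgactatggaacgta
miR-22-3p, chr11:75463772-75463793, plus strand: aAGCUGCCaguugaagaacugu
Mir22hg-labelled read, A18G: aagctgccagttgaagaGctgt
The A7G read shows what a label can rest on. Its exact run in the Castor2 transcript began at the substituted base and covered the last 16 of its 22 bases, in capitals here: taggctGGAGAGAGGTTGGGGA. The Elp3-labelled read shared its first 18 bases with the Elp3 transcript, again with the substituted base inside the run: TGAGGTAGTGGGTTGTGTggtt.

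The most abundant of these reads were the A7G form of miR-3099-3p. Members that began with its first 16 bases numbered 58 sequences under 7 labels (Castor2, Clmn, Filip1, Myrfl, Rab8a, Slc2a3 and Trpm3), none of which is a miRNA gene: among them Castor2 acts in amino acid sensing upstream of mTORC1, and Trpm3 is a cation channel. Their summed CPM was 286, 393, 302 and 464 in the het libraries and 375, 270, 610 and 411 in the ko libraries, or 7.5% of the members' CPM on average. The groups overlapped, and the highest value was that of ko replicate 3 and the lowest that of ko replicate 2.

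In every library the substituted form outnumbered the reference form of miR-3099-3p. Reads whose first 18 bases were either form were compared over the whole table: the A7G form made up 72.5%, 76.5%, 73.5% and 73.4% of them in the het libraries and 79.0%, 78.6%, 75.9% and 79.5% in the ko libraries. The shallowest library, het replicate 1, rested on 204 reads (95% Wilson interval 66.1 to 78.2%) and the deepest, ko replicate 2, on 6831 reads (77.6 to 79.5%). The difference, 74.0% ± 1.72 against 78.2% ± 1.60 (SD, n = 4 each), did not pass the exact two-sided permutation test (p = 0.057, adjusted p = 0.486 over 17 sites), and 1 het library lay above the lowest ko library. The position is chr7:6803644 (GRCm38.p6) and lies inside the seed, where the change moved the seed viability from 65.0 to 55.3. No read of the A7G form carried a miRNA name, so all 389 CPM of it stood in the mRNA class.

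A single substitution was the usual difference between a hairpin-like member and its hairpin. By definition these members had no miRNA name and at most 1 edit. The counts below therefore do not describe hairpin reads in general. Of the 795 hairpin-like sequences, 606 differed by 1 substitution, 180 by an insertion or deletion and 9 by none, over 103 hairpins. A read that differed only at its last base was counted under insertion or deletion, because its alignment ended 1 base earlier. A-to-G was the most frequent change, with 152 sequences and 508 CPM, followed by T-to-C with 124 sequences and 128 CPM and C-to-T with 113 sequences and 97.5 CPM. The other 9 changes held at most 53 sequences and 41.8 CPM each. The miR-3099-3p A7G and let-7b-5p A10G forms together held 68.7% of the A-to-G CPM, and the remaining 141 A-to-G sequences stood at 159 CPM, against 103 CPM for the 117 T-to-C sequences left without the 2 most abundant T-to-C forms. Of the 606 counted substitutions, 165 fell in the seed. In the last 3 bases of a read 5 were counted, and this number leaves out differences at the very last base. The 2 numbers are therefore not compared. Among the 165 seed substitutions the viability of the seed was lower than that of the reference in 103 and higher in 62, with a median shift of -6.2.

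Most substituted forms were rare beside their reference form. Over 392 sites (one hairpin, one 18-base start, one substitution), the median site had 0.061% of its reads substituted. At 17 sites, chosen after the values were seen, the substituted form reached a mean of at least 2% with at least 10 CPM for both forms together, and 16 of these were A-to-G, against 90 of the 392 sites. Since some reads began at another base, the 17 sites stood for 15 distinct bases. Of the 17 sites, 13 lay in the seed, and the change lowered the seed viability at 11 of these. On chromosome 12 lay 9 of the 17, in the cluster of miRNA genes that includes Mir376b, Mir376c, Mir379 and Mir381. Deamination of adenosine to inosine by the ADAR enzymes is read as A-to-G in sequencing and is known from brain miRNAs of this cluster. It was not measured separately here, and its part in these reads was not tested.

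No site passed the test between the genotypes, which 4 against 4 libraries allow only when at least 10 of the 17 sites separate fully. For the A6G form of miR-376b-3p, at chr12:109723513, the share was 71.3%, 75.4%, 66.1% and 70.4% in het and 75.1%, 76.3%, 76.3% and 76.3% in ko (exact p = 0.057, adjusted p = 0.486), on 1745 to 77035 reads per library. The A6G form of Mir376c, at chr12:109722775, made up 43.3 to 54.9% of its reads and the A5G form of miR-379-5p, at chr12:109709069, 13.5 to 18.7%. Seed viability went from 66.8 to 44.2 for miR-376b-3p, from 78.1 to 46.4 for Mir376c and from 34.4 to 15.7 for miR-379-5p. The smallest adjusted p over the 17 sites was 0.486, which is also what 1 fully separated site alone would receive. Substituted miR-376b-3p reads mostly carried a miRNA name, and members accounted for 0.908% of its 2396 CPM, in contrast to miR-3099-3p. Members likewise held 0.873% of the 183 CPM of the Mir376c form and 1.58% of the 152 CPM of the miR-379-5p form. The shares at these sites therefore rest mostly on reads outside the class.

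The Elp3-labelled reads followed let-7b-5p, whose seed the change left intact. Elp3 encodes the catalytic subunit of the Elongator complex, which modifies tRNA. The 22-nt A10G read stood at 56.0, 72.2, 50.1 and 107 CPM in het and at 54.8, 41.7, 91.9 and 37.2 CPM in ko, and the groups overlapped. The A10G form made up 0.397 to 0.561% of let-7b reads over the 8 libraries, so its level of 170 CPM came with 35209 CPM of the reference form. Its seed viability of 50.3 was that of let-7 itself.

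Some labels were the transcripts that host the miRNA gene. The labelled transcript lay within 1 edit of 356 of the 795 hairpin-like sequences, and these held 429 of 1046 CPM. Spaca6-labelled reads (109 sequences, 131 CPM) were led by forms of miR-125a, Mir22hg-labelled reads (84 sequences, 129 CPM) by forms of miR-22 and Vmp1-labelled reads (94 sequences, 106 CPM) by forms of miR-21a. Spaca6 is a sperm protein needed for fertilization, Vmp1 is an endoplasmic reticulum protein of autophagosome formation, and Mir22hg is the noncoding host of miR-22. The CPM-weighted seed viability followed the miRNA: 74.8 for Spaca6-labelled, 71.7 for Vmp1-labelled and 18.6 for Mir22hg-labelled reads.

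One Vmp1-labelled form was unlike the others. The G6C form of miR-21a-3p, the only site of the 17 that was not A-to-G, made up 77.8%, 8.003%, 56.2% and 80.002% of its reads in het and 14.3%, 27.5%, 97.3% and 86.2% in ko. Its depth was low, 9 to 258 reads per library, but the Wilson intervals of ko replicate 1 (7.95 to 24.3%, 70 reads) and ko replicate 3 (94.5 to 98.7%, 258 reads) were far apart. The libraries split within both genotypes, and the exact p for genotype was 1. The human miR-21-3p is known to differ from the mouse form at this base; no human sequence was searched, the read is not printed, and its source was not tested.

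Transcript-matched reads were a small group, at 434, 444, 342 and 393 CPM in het and 250, 265, 495 and 748 CPM in ko. Of the 495 sequences, 95 overlapped a coding sequence, 100 lay in a 3′ UTR, 73 in a 5′ UTR and 227 in transcripts without a coding region. Sequences under 18 nt numbered 145, and 164 of all 508 sense matches hit more than 1 gene. The 3 examples below show matches to a single gene, with the 6mer seed (bases 2 to 7) in capitals.
Hfe2-labelled read, 5330434G04Rik exon 5 (lincRNA), chrX:105349609-105349630 (GRCm38), minus strand: tCATCATctgggaataataggt
Selenom-labelled read, Selenom exon 2 (processed transcript), chr11:3516980-3517001 (GRCm38), plus strand: tCCCGCCctttctccatcttag
Rprd2-labelled read, Rprd2 exon 1 (coding sequence), chr3:95818694-95818715 (GRCm38), minus strand: tCCTCCTcgtcggcctcgtccg
The lincRNA read was present in every library, at 73.4, 47.5, 45.0 and 30.0 CPM in het and 29.5, 42.7, 36.5 and 27.4 CPM in ko, and its seed viability was 62.0. Its label, Hfe2, shared 14 bases with it. The Selenom read, from the locus of a selenoprotein of the endoplasmic reticulum, carried a seed with a viability of 21.5 and ranged from 0 to 12.4 CPM. The Rprd2 read, from a regulator of RNA polymerase II, was detected in het replicate 1 (9.65 CPM), het replicate 2 (0.688 CPM) and ko replicate 3 (3.01 CPM).

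The Hif3a label, a hypoxia-inducible factor subunit, held the most abundant transcript-matched read, an 18-nt sequence that ended in CCA and matched transcripts of 6 genes. It stood at 36.7, 28.9, 12.8 and 8.64 CPM in het and 8.91, 10.1, 60.2 and 371 CPM in ko, so that ko replicate 4 alone held 69.1% of it. Sequences ending in CCA, the 3′ end that is added to every mature tRNA, made up 8.35% of the members, 15.4% of the tRNA-labelled sequences and 1.57% of the miRNA sequences. Their CPM differed 23.5-fold between libraries, from 97.1 in ko replicate 1 to 2278 in het replicate 1.

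The unmatched reads were the largest group and the most uneven. They held 7070, 4492, 2449 and 3953 CPM in het and 1416, 1260, 3030 and 5812 CPM in ko, a 5.61-fold range, against 1.80-fold for the hairpin-like and 3.0-fold for the transcript-matched reads. Few of them began like a named small RNA: 33 sequences shared their first 15 bases with a miRNA-named read, 45 with a tRNA-labelled read and 7 with an rRNA-labelled read. Another measure, 2 edits from a hairpin in reads of at least 18 nt, was met by 400 of them. Since their origin is unknown, their sequences are not printed.

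Single libraries decided the level of several unmatched labels. Gm12405-labelled reads (a predicted gene, 18 sequences) stood at 27.0, 137, 12.04 and 16.9 CPM in het and at 14.2, 2.41, 27.9 and 1549 CPM in ko, so that 86.7% of their CPM came from ko replicate 4. Kdm5a-labelled reads (Kdm5a is a histone demethylase) stood at 770 and 107 CPM in het replicates 1 and 2 and at 1.15 CPM or less in the other 6 libraries. Glb1l2-labelled reads, the label with the highest mean CPM (239), were present throughout, at 373, 245, 86.6 and 355 CPM in het and 194, 136, 112 and 413 CPM in ko, with a seed viability of 37.1. Of the 123 labels with a mean of at least 5 CPM, 25 had over 50% of their CPM in 1 library, 13 of them in the first het library and 9 in the fourth ko library.

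The share of reads in the mRNA class moved with library depth, which was 509839 to 2634450 reads in het and 1010177 to 19878054 reads in ko. It was 0.846%, 0.613%, 0.373% and 0.562% in het and 0.256%, 0.244%, 0.503% and 0.762% in ko, with 95% Wilson intervals at most 0.050 percentage points wide. Het replicate 1 and ko replicate 4, the 2 libraries with the highest shares, were also the 2 with the fewest reads. Over the 8 libraries the members' CPM fell with log10 of the read total (Pearson r = -0.93, exact permutation p = 0.00050, adjusted p = 0.0020; Spearman rho = -0.93, exact permutation p = 0.0022, adjusted p = 0.0045 over 4 relations). Without the libraries of the lowest and the highest depth r was -0.92. For the unmatched reads r was -0.92 (exact adjusted p = 0.0020) and rho -0.93 (exact adjusted p = 0.0045). For the transcript-matched reads rho was -0.79 and passed (exact adjusted p = 0.037), whereas r was -0.68 and did not (exact adjusted p = 0.090), and r was -0.85 without the same 2 libraries. For the hairpin-like reads r was -0.08 (exact adjusted p = 0.84) and rho -0.02 (exact adjusted p = 0.98). Both measures share the read total, and the 2 deepest libraries are both ko, so depth and genotype could not be fully separated.

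None of the 6 measures of the whole class passed the test between genotypes. The share of reads was 0.599% ± 0.195 in het and 0.441% ± 0.245 in ko (exact two-sided permutation p = 0.371, adjusted p = 0.557; the smallest p that 4 against 4 allows is 0.029). The difference of -0.157 percentage points was -0.075 without het replicate 1 and -0.264 without ko replicate 4, and turned to 0.034 higher in ko without the 2 libraries over 5000000 reads. The mean seed viability, weighted by CPM, was 55.4, 52.6, 54.7 and 50.8 in het and 51.8, 50.2, 52.0 and 49.0 in ko. The means of 53.4 ± 2.09 and 50.7 ± 1.44 differed by -2.66 (exact p = 0.114, adjusted p = 0.229), and the groups overlapped. As a mean over distinct sequences, without the weight of CPM, the difference was -0.372. The share of reads with a viability over 80 was 13.02% ± 5.61 in het and 6.59% ± 1.16 in ko (exact adjusted p = 0.229), with 19.8% in het replicate 1 (difference -6.43 percentage points, and -4.17 without that library), and the share under 40 was 29.9% ± 3.31 and 32.0% ± 7.31 (exact adjusted p = 0.891), a difference of 2.10 percentage points that turned to -1.48 without ko replicate 4 (42.8%). G filled 32.5% of seed positions in both genotypes (exact adjusted p = 1).

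Mean length differed most in rank order: 19.2, 19.8, 19.9 and 19.9 nt in het and 20.6, 20.6, 20.2 and 20.1 nt in ko. The groups did not overlap, and the exact p was the smallest possible (0.029), but the adjusted p over the 6 measures was 0.171, the smallest that 1 measure alone can receive. The difference was 0.679 nt. Unmatched reads measured 19.3 ± 0.253 and 20.2 ± 0.276 nt, and hairpin-like reads 21.2 ± 0.061 and 21.1 ± 0.102 nt. Of the members' CPM, hairpin-like reads held 18.8% ± 6.38 in het and 28.7% ± 10.9 in ko, and unmatched reads 74.0% ± 7.92 and 61.2% ± 11.1, with overlapping groups (exact p = 0.171 and 0.143, adjusted p = 0.171 over 3 kinds). Transcript-matched reads held 7.20% ± 1.64 and 10.1% ± 0.523 without overlap (exact p = 0.029, the smallest possible, adjusted p = 0.086). The 2 longest means were those of the 2 deepest libraries, and without these the difference was 0.466 nt (exact p = 0.133, the smallest that 4 against 2 allows, adjusted p = 0.533), and the groups still did not overlap. Ko replicate 4, with the second lowest read total, had a longer mean than every het library.

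The 3 kinds of read did not move in the same direction between genotypes, and none passed the test. Hairpin-like reads stood at 822, 1162, 909 and 1213 CPM in het and 890, 906, 1478 and 987 CPM in ko (exact adjusted p = 0.886 over 6 tests of level and viability). Their mean seed viability was 53.5 ± 2.21 and 53.2 ± 2.51, and that of the transcript-matched reads 57.2 ± 3.44 and 57.9 ± 1.59. The unmatched reads had 53.0 ± 2.10 in het and 48.8 ± 1.73 in ko (exact p = 0.057, adjusted p = 0.343).

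Within each library the mRNA-labelled reads had a lower mean seed viability than each of the 3 classes compared, miRNA, tRNA and rRNA reads. Over the 8 libraries it was 52.1 ± 2.19 for the members, 56.4 ± 0.786 for miRNA reads, 60.5 ± 0.997 for tRNA fragments and 56.0 ± 1.91 for rRNA fragments. The within-library differences were -4.35 ± 2.31, -8.45 ± 2.34 and -3.96 ± 2.11 (SD, n = 8), negative in 8 of 8 libraries for each class (exact two-sided sign-flip permutation p = 0.0078 for each, the smallest possible, adjusted p = 0.0078 over 3). Against miRNA reads the sign depended on the summary: the CPM-weighted median of the members was 2.14 above that of the miRNA reads, and this did not pass the test (exact adjusted p = 0.164). The transcript-matched reads alone had a mean 1.15 above that of miRNA reads and 1.53 above that of rRNA fragments, and neither passed the exact test (adjusted p = 0.156 and 0.117). Against tRNA fragments their mean was -2.95 and did not pass either (exact adjusted p = 0.094).

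The class also differed from miRNA reads in its first base and its length, given here as description. U was the first base of 51.4% ± 8.50 of the members' CPM (39.2 to 66.5%), against 74.0% for miRNA reads, 55.4% for tRNA fragments and 39.4% for rRNA fragments. Among the members, hairpin-like reads began with U in 67.4% ± 4.62, transcript-matched reads in 49.3% ± 12.9 and unmatched reads in 47.4% ± 9.20 of their CPM. Lengths of 19 to 24 nt held 75.0% ± 8.06 of the members' CPM and 98.95% of the miRNA reads' CPM. The most frequent length of a member was 22 nt, with 776 sequences and 20.9% of the CPM.

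Most members were rare: 1596 sequences were detected in 1 library only and held 14.9% of the CPM, while 141 were detected in all 8 and held 30.2%. The median member had a mean of 0.451 CPM, which is below the worth of 1 read in het replicate 1 (1.93 CPM), and 44 sequences reached a mean of 10 CPM. The 10 most abundant sequences held 14.4% of the CPM; 3 of them were A7G forms of miR-3099-3p and 1 was the A10G form of let-7b-5p.

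No label and no single read of the class passed the test between genotypes. In the limma fit over all 858 source RNAs of the table with a mean of at least 5 CPM, 0.466% of features were called (4, all lower in ko; 0 higher), and 0 of 123 mRNA labels were among them, with 16 labels at an unadjusted p under 0.05 against 67 of all 858 source RNAs. In the fit of 3299 single reads (mean of 10 CPM or more) 0.485% were called, among them 0 of the 44 members, with 2 at an unadjusted p under 0.05 against 175 of all 3299 reads. edgeR on recovered reads called 0 members in both fits, against 0.466% of all source RNAs and 0.424% of all reads. DESeq2 called 1 of 113 labels and 1 of 39 member reads that received an adjusted p, against 1.18% of all source RNAs and 0.823% of all reads, each of them lower in ko. The label it called was Kdm5a, in which 2 het libraries carry nearly all CPM. The median log2 difference, ko minus het on the log2(CPM + 1) scale, was -0.62 over the 123 labels and -0.09 over all 858 source RNAs. With median centring these values were -0.37 and 0.15. Without the 2 libraries over 5000000 reads, both ko, the median of the labels was -0.097 and that of all source RNAs -0.012. It was -0.31 with edgeR, -0.38 without het replicate 2 and -0.41 without ko replicate 1.

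Among the labels nearest to a call, 4 that were lower in ko were mostly unmatched. Tdg, Krt27, Spred3 and Mylk had log2 differences of -2.61, -2.22, -3.20 and -2.21 and limma adjusted p of 0.521 to 0.624. Spred3-labelled reads had 92.8% of their CPM in het replicate 1, without which the log2 difference was -1.90. Without the 2 deepest libraries that of Tdg was -1.60, of Krt27 -1.38 and of Mylk -1.34. In the other direction Erbb4-labelled reads (Erbb4 is a neuregulin receptor) had a log2 difference of 2.06 ± 0.88 and Yipf3-labelled reads, with 91.0% of their CPM hairpin-like and led by let-7g, 1.63 ± 0.72 (limma adjusted p = 0.624 and 0.637). Rab8a, Stx3 and Slc27a2 completed the 5 labels with the smallest p in this direction, with log2 differences of 1.25, 1.23 and 2.01 and a limma adjusted p of 0.777 each. Without het replicate 1 the difference was 0.51 for Rab8a and 0.47 for Stx3. Slc27a2, at 0 in 4 libraries and with 63.9% of its CPM in ko replicate 4, had 1.09 without that library and 4.32 without the 2 deepest libraries.

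Labels of brain cell type markers were few and low. In bulk tissue fewer cells of a type and less RNA per cell cannot be told apart. Of 75 marker genes of neurons, oligodendrocytes, astrocytes, microglia, blood, choroid plexus and endothelium, 11 had a member (14.7%, against 10.9% of the 21877 genes with a protein-coding transcript in M21), with 19 sequences in all, of which 2 matched their transcript exactly. None of the 11 reached a mean of 5 CPM. The astrocyte labels (Gfap, Slc1a2, Glul and Cst3) together reached at most 6.01 CPM in a library. Oligodendrocyte (Cnp), microglia (Aif1) and choroid plexus (Kl) labels were 1 gene each, and no blood or endothelium marker was listed. None of the 7 Alzheimer and amyloid genes and none of the 9 autophagy genes, Rubcn among them, had a member, so the table gives no check of the Rubicon genotype. Among 10 genes of the RISC and miRNA processing, Ago3, Tnrc6b and Tnrc6c had members, at up to 8.94 CPM together.

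Housekeeping transcripts were also minor. Labels that begin with Rpl or Rps numbered 9, with 19 sequences and 3.92 to 44.7 CPM per library, and 3 of the 9 (Rps6ka2, Rps6kb1 and Rps6kl1) are kinases and not ribosomal proteins. Rps6ka2, the only gene of any list with a mean of at least 5 CPM, was at 7.04 CPM with a log2 difference of -1.80 ± 0.94 (limma adjusted p = 0.762). Het replicate 1 held 51.4% of its CPM, and without the 2 deepest libraries the difference was -0.72. Mitochondrially encoded transcripts were labelled mt-Co1 and mt-Co3 (7 sequences, at most 8.93 CPM) and histones H2afx, H3f3b and Hist1h2ab (3 sequences, at most 17.4 CPM).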

How the data were processed

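Argonaute-bound RNA of 19 to 35 nt was gel extracted, sequenced on an Illumina HiSeq instrument and, per the labels, trimmed with Trim Galore. The authors compared the reads with lists of small RNAs by BLAST in their SPOROS pipeline. The deposited table gives CPM per sequence, and the seed viability score was deposited with it (mean of 3 mouse lines). A deposited total signal per sequence was not used. The CPM of the listed sequences summed to 98.4 to 99.8% of the full scale. Whole reads were recovered from the CPM steps (100% of values within 0.02 reads), which gave 509839 to 19878054 reads per library.

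Groups were read from the sample titles, and no listed sample column was left unused (0). Members were compared with GENCODE M21 transcripts (exact, both strands) and with RefSeq hairpins (edlib 1.3.9.post1, reads of at least 18 nt, at most 1 edit). Per-library measures were tested with exact permutation tests (70 splits of 4 against 4, 256 sign patterns for classes within a library, 40320 orders for correlations; scipy 1.17.1), with Benjamini-Hochberg adjustment. Levels were tested with limma 3.58.1 (trend, robust) on log2(CPM + 1), over the whole table, by source RNA (mean of at least 5 CPM) and by read (at least 10 CPM). A fold change on this scale understates that of low reads. The 760 sequences with no label of any kind were left out of the sums by source. edgeR 4.0.16 (quasi-likelihood, TMM) and DESeq2 1.42.0 were run on the recovered reads as alternatives in R 4.3.3. Scripts were tested on simulated data.

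Named labels are the 10 with the highest mean CPM, the 5 with the smallest limma p in each direction and list genes of at least 5 CPM; named reads are the 10 with the highest mean CPM. Some items are not reported here. Substitution sites, printed examples and the transcripts behind them were chosen after the values were seen. The members and lists were chosen with earlier results of these data known. No molecular identifiers are stated, so intervals cover counting error only. The labels give 250 mg of tissue; the aligner version is not given in the sources used here.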

Additional observations from a re-analysis of the deposited data

Results flagged for a closer look

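Values that stood apart within a group of 4 libraries are listed here; 66 groups were examined and chance alone flags about 1 in 20, against 11 found. Het replicate 1, the shallowest library, had the shortest mean length (19.2 nt) and the highest CPM of members ending in CCA (2278) and of Kdm5a-labelled reads (770). Ko replicate 4, the second shallowest, had the lowest share of reads with a seed viability over 80 (4.86%) and the highest CPM of Gm12405-labelled (1549) and Hif3a-labelled reads (530.1). Gm12405-labelled reads also stood apart in het replicate 2 (137 CPM).

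Hairpin-like members were highest in ko replicate 3 (1478 CPM). The A6G share of miR-376b-3p in ko replicate 1 (75.1%) lay below 3 nearly equal values and differed from them by little over 1 percentage point. The A7G share of Mir3475 was 37.5% in 1 het library (replicate 2), 1.11% in 1 ko library (replicate 2) and 0 in the other 6, on as few as 10 reads. What sets these libraries apart was not tested.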

How the results depend on the processing

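No alternative moved a per-library measure past the threshold between genotypes, but leaving out 1 library (smallest exact p 0.057), the block (0.125) and the fit without the 2 deepest libraries (0.133) could not do so. Differences are ko minus het. The share of reads was 0.034 percentage points higher in ko without the 2 libraries over 5000000 reads, 0.0067 with members matching a protein-coding transcript, 0.0034 with hairpin-like and 0.0034 with transcript-matched members. It ranged from -0.264 (without ko replicate 4) to -0.075 (without het replicate 1) when libraries were left out in turn, with -0.096 and -0.091 without ko replicates 1 and 2, and was -0.069 with members of 19 to 24 nt. The seed viability differed by -0.372 over distinct sequences and -0.252 with hairpin-like members, and was 0.895 higher in ko with members matching a protein-coding transcript and 0.697 with transcript-matched members. The share with a viability under 40 was -7.16 percentage points with members matching a protein-coding transcript, -0.109 with hairpin-like and -4.60 with transcript-matched members, and ranged from -1.48 (without ko replicate 4) to 3.65 when libraries were left out in turn. It was 5.20 without the 2 libraries over 5000000 reads. The share over 80 was -0.207 with hairpin-like, -3.22 with transcript-matched and -8.53 with unmatched members. The G share ranged from -0.455 to 0.479 when libraries were left out in turn, and was 0.506 with members of 19 to 24 nt and 1.36 with unmatched members. It moved most with members matching a protein-coding transcript (-6.66 percentage points) and with transcript-matched members (-4.69). Mean length was -0.073 nt with hairpin-like members, 0.035 with transcript-matched members, 0.182 with members matching a protein-coding transcript and 0.302 with members of 19 to 24 nt. Restriction to a kind of member was chosen after seeing the data; the causes were not tested.

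The lower mean viability against miRNA reads turned to 2.14 higher with CPM-weighted medians and to 1.15 higher for transcript-matched members; for these it was 1.53 higher against rRNA fragments and -2.95 against tRNA fragments (exact adjusted p = 0.094). It held without each library (-4.72 to -3.70 against miRNA reads).

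Calls of labels and of reads stayed at 0 under all alternatives except DESeq2, with 1 each (the Kdm5a label, log2 -8.39, adjusted p = 0.0033), while DESeq2 called 1.18% of all source RNAs and 0.823% of all reads. Without a library in turn the log2 differences ranged from -0.12 to 0.32 for Castor2, -0.19 to 0.28 for Elp3, -1.43 to 1.52 for Gm12405, -0.53 to 0.072 for Mir22hg, -0.33 to 0.067 for Spaca6 and -0.075 to 0.26 for Trpm3, all of which changed sign. Mir22hg was 0.021 with median centring, 0.028 with edgeR and 0.0056 with DESeq2, and Spaca6 0.063 with median centring and 0.21 without the deepest libraries.

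Same-numbered libraries came from different mice, and their deviations correlated at -0.01, 0.13, -0.13 and 0.15. Differently numbered libraries were not compared in this way, so whether the numbers share a batch was not tested. With a replicate block the count of called labels was 0 and that of called reads 0, against 9 of all 858 source RNAs and 26 of all 3299 reads, and mean length differed by 0.679 nt (exact adjusted p = 0.250).

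Depth limits the rare members most: the floor of 3 reads stands at 5.79 CPM for the shallowest library and at 0.151 CPM for the deepest.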
